A study of Sus scrofa with 96 samples.

Results

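A set of 183 genes, selected on their measured levels, was taken from the 25322 pig gene identifiers counted in the series. They took many reads in testis with both library kits and almost none in liver. Levels were expressed as CPM, the reads of a gene scaled to an equal total of reads on genes in each library. A member had a median of at least 200 CPM over the stranded mRNA libraries of testis and a median below 0.1 CPM over those of liver. The median log2(CPM + 0.5) of its total RNA testis libraries also lay within 1.5 of the stranded mRNA median. Of the 1095 genes that reached 200 CPM in testis, 194 met the liver limit, and 183 of these met the kit limit. A symbol was found for 116 members, and 67 have only an identifier. All comparisons of testis with liver and of total RNA with stranded mRNA in testis were used to choose the members, so they are described here without a test.

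The animals were 48 non-castrated Danish Landrace boars in 3 groups of 16 with low, medium or high genetic merit of boar taint (BT), the off-odour of pork from entire males. Merit was the sum of the breeding values of the sire for skatole in fat and for human nose score, so a pig's group describes its sire and not a measurement on the pig itself. No group was treated, and half-sibs were allowed within a sire. Liver was biopsied directly after slaughter and testis after the carcass had been kept cold, and each animal gave both tissues. RNA of higher integrity went into the stranded mRNA kit and RNA of lower integrity into the total RNA kit. In testis, low BT comprised 7 stranded mRNA libraries of batch 1 and 9 total RNA libraries of batch 3, and high BT comprised 14 stranded mRNA libraries of batch 2 and 2 total RNA libraries of batch 3. Medium BT comprised 7 of batch 1, 6 of batch 2 and 3 of batch 3. The batch is known only from the names the submitters gave their files. In liver, 46 libraries were stranded mRNA and 2 were total RNA.

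Most reads of an adult testis come from germ cells. Late in spermatogenesis the round spermatid builds an acrosome, a flagellum and a condensed nucleus. Between the tubules lie the Leydig cells, which make androgens from cholesterol and secrete the peptide hormone INSL3. In boars they also make androstenone, a steroid that contributes to boar taint.

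Before any comparison, 2 testis libraries stood apart. The total RNA library of low BT pig 3309 had 379942 reads on 940 genes, of which 8 were members, and was left out of the levels. The stranded mRNA library of medium BT pig 8308 in batch 1 had 10253827 reads on 17190 genes, but only 0.215% of its reads fell on the members. In that library the smooth muscle genes ACTA2 and MYH11 were at 4339 and 598 CPM, against medians of 36.5 and 2.52 CPM over the stranded mRNA testes, and the beta globin HBB was at 21625 CPM against 58.1 CPM. The epididymal markers WFDC8 and LCN8 were at 0 in it. Their medians were also 0 over stranded mRNA testes, total RNA testes and stranded mRNA livers, so these zeros do not set it apart. In the same library the summed spermatid markers were at 1112 CPM against 32651 to 64971 CPM in the other 33 stranded mRNA testes. Its markers go against its label as testis, and which tissue the biopsy held was not tested. It was kept in the main comparisons under that label, and many results are also given without it. Some are given only with it, among them the kit differences and the pooled fits with edgeR and DESeq2. The other stranded mRNA testes had 4881825 to 18045966 reads on genes and the 13 total RNA testes 3689243 to 8263479.

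The members took a large and even share of the testis reads. In the 33 stranded mRNA testes other than that of pig 8308 the share was 7.63% to 10.8% (median 9.32%), and in the 13 total RNA testes it was 4.61% to 6.90% (median 6.02%), with no overlap between the kits. In the 46 stranded mRNA livers the share was 0.000118% to 0.0133% (median 0.00066%), and in the 2 total RNA livers it was 0.00254% and 0.00324%. The gap between tissues is what the rule selected.

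**Figure D1:**
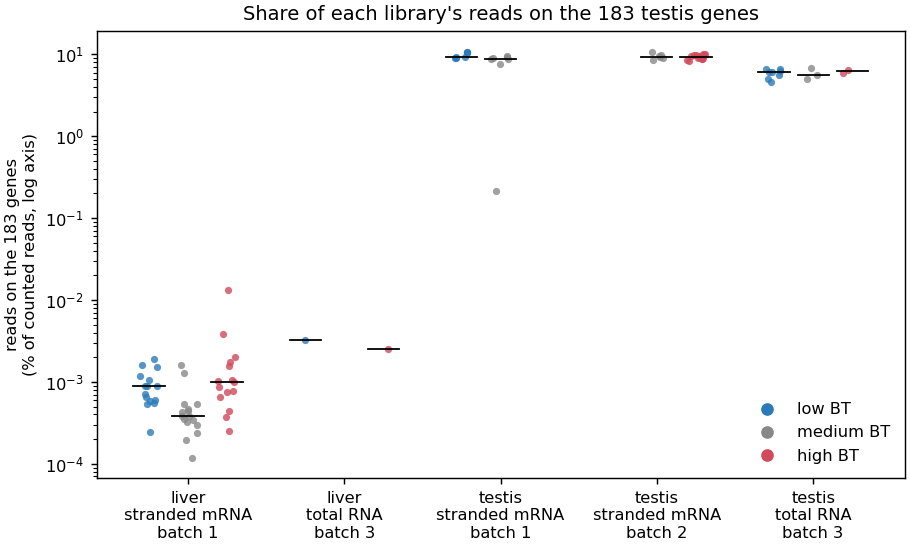
Percentage of each library's counted reads that fell on the 183 genes (log axis), for libraries with at least 5000 genes counted, by tissue, kit, batch and merit group. Points are libraries and bars are medians. All testes except 1 lie between 4.61% and 10.8%, the testis of pig 8308 lies at 0.215%, and no liver exceeds 0.0133%.

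The fixed marker lists covered few of the members. Of 28 spermatid markers, 24 had a counted identifier and 11 were members: ACRV1, ACR, PRM2, SPATA18, TSSK2, TSSK6, AKAP4, GAPDHS, TEKT1, SMCP and HMGB4. A further 10 were kept out by the liver limit. Among them was the protamine PRM1 with 13384 CPM in testis and 0.341 CPM in liver, and TNP1 with 5248 CPM in testis and 0.103 CPM in liver. ODF1 and SPATA3 were kept out by the kit limit. Of the 7 Leydig cell markers, 5 had a counted identifier, and CYP17A1, CYP11A1 and INSL3 were members. Of the spermatocyte markers only TEX101 was a member. No marker of spermatogonia, Sertoli cells, peritubular cells, blood, hepatocytes or epididymis was. The set thus holds markers of spermatids and of Leydig cells, and most members were on no list. In bulk tissue, fewer cells of a type and less RNA per cell cannot be told apart.

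At the edges of the rule the genes differed little from their neighbours outside. CFAP45, a protein of the flagellar microtubules, entered with 200.1 CPM, and PDCL2 stayed out with 198.6 CPM. KIF27 had a liver median of 0.0989 CPM and PDZD9 one of 0.101 CPM. TEKT3, a tektin of the flagellum, had a kit difference of -1.49 on the log2 scale and CFAP141 one of -1.52. At the upper kit limit the last member was ENSSSCG00000016024 with 1.45, and no gene lay above.

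The Leydig cell gave 3 members, and 2 of them took the most reads of all. INSL3, the hormone that guides testicular descent, ranged from 782 to 7251 CPM (median 2232) in the 33 stranded mRNA testes. CYP17A1, the enzyme that turns pregnenolone towards androgens, ranged from 606 to 8099.7 CPM (median 2198). CYP11A1, which cleaves the cholesterol side chain as the first step of steroid synthesis, ranged from 101 to 882 CPM, with a median of 276 CPM when the testis of pig 8308 is included. These ranges span 9.28-fold for INSL3 and 13.4-fold for CYP17A1. Read counts depend on transcript length, which was not used here, so the order of genes is one of reads and not of molecules.

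The flagellar sheath and its energy supply were represented by 7 members. AKAP4, the main anchoring protein of the fibrous sheath, ranged from 1390 to 3055 CPM in the 33 testes. GK2, a testis glycerol kinase, ranged from 1464 to 2419 CPM and the sperm glycolytic enzyme GAPDHS from 362 to 815 CPM. SMCP, a mitochondrial capsule protein, ranged from 433 to 1086 CPM, and SEPTIN12, of the annulus, from 515 to 716 CPM. These genes varied far less between boars than the Leydig cell genes: AKAP4 spanned 2.20-fold.

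Chromatin condensation was represented by PRM2, HMGB4 and H1-7. PRM2, a protamine that replaces histones in the sperm head, ranged from 383 to 2484 CPM, the widest relative range among these 3. HMGB4 ranged from 934 to 1909 CPM and the spermatid linker histone H1-7 from 266 to 557 CPM. Among 10 members of the sperm head cytoskeleton and nuclear envelope, CAPZA3, an actin capping subunit, had a median of 878 CPM, the actin-like ACTL7A one of 802 CPM and ACTL7B one of 745 CPM. ACTL7A and ACTL7B are next to each other in the RefSeq gene order, as are PLCZ1 and CAPZA3. Of 97 member symbols found in RefSeq, these were the only 2 pairs of direct neighbours.

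The acrosome and fertilisation were represented by 9 members. ACRV1, an acrosomal vesicle protein, ranged from 353 to 880.5 CPM, the protease acrosin ACR from 171 to 371 CPM, and PLCZ1, the sperm phospholipase that activates the egg, from 303 to 643 CPM. The 15 axoneme members included CETN1, a centrin, with 903 to 1546 CPM, the tektins TEKT1, TEKT2 and TEKT3, and SPAG6 of the central pair with 427 to 637 CPM. The spermatid kinases TSSK2 and TSSK6 had medians of 810.3 and 358 CPM. The meiosis genes MEIOC, KCTD19 and SHCBP1L had medians between 270 and 404 CPM. HSPB9, NT5C1B, TMCO5A, ACSBG2, CCDC136 and USP50 were the other named members with the most reads, from 1860 CPM for HSPB9 to 915 CPM for USP50.

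The 3 Leydig cell genes and RDH12 varied widely between boars. Over the 33 testes the standard deviation of log2(CPM + 0.5) had a median of 0.26 over the members, against 0.21 over the 912 other genes of at least 200 CPM. It was 0.90 for CYP17A1, 0.84 for INSL3 and 0.79 for CYP11A1, and 0.59 for PRM2. RDH12, a retinol dehydrogenase, had 0.90. SPAG6 had the lowest, 0.11. With pig 8308 the median over members was 0.97. With that pig included, CYP17A1 and RDH12 had the highest values and ENSSSCG00000029289 and CFAP45 the lowest, at 0.54 and 0.74.

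Boars with high levels of one Leydig cell gene had high levels of the others. Over the 33 testes, log2 levels of CYP17A1 and CYP11A1 had r = 0.96 and rho = 0.94, INSL3 and CYP17A1 r = 0.88 and rho = 0.82, and INSL3 and CYP11A1 r = 0.88 and rho = 0.84. The two-sided permutation p was 1e-05 for each, the smallest that 100000 permutations can give, and 2e-05 after Benjamini-Hochberg adjustment over 6 pairs. Within batch 1 (n = 13) the 3 values of r were 0.95, 0.84 and 0.81, within batch 2 (n = 20) 0.97, 0.94 and 0.93, and in total RNA testes (n = 13) 0.98, 0.82 and 0.83, in the same order. Without the 2 libraries farthest from the median r was 0.95, 0.84 and 0.84.

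With AKAP4, the spermatid marker of most reads among the members, the same 3 genes varied in the opposite direction. For INSL3 r was -0.54 and rho -0.45 (permutation p = 0.0011 and 0.00879), for CYP17A1 r was -0.53 and rho -0.45 (permutation p = 0.00171 and 0.00854), and for CYP11A1 r was -0.51 and rho -0.50 (permutation p = 0.0024 and 0.00325). The adjusted values ranged from 0.00165 to 0.00879. Within batch 1, batch 2 and total RNA r was -0.43, -0.49 and -0.42 for INSL3, -0.56, -0.50 and -0.56 for CYP17A1, and -0.58, -0.44 and -0.69 for CYP11A1. Leaving out the 2 farthest libraries gave -0.48, -0.49 and -0.43. AKAP4 was among the most negative of the 11 spermatid markers in the set. With CYP17A1, over the same testes, HMGB4 had r = -0.57 and SPATA18 -0.50, but GAPDHS -0.29, TSSK2 -0.28, SMCP -0.26, TSSK6 -0.20, ACR -0.16, PRM2 -0.15, TEKT1 -0.11 and ACRV1 0.0026.

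The members whose pattern was most like that of CYP17A1 over the 33 testes were CYP11A1 (r = 0.96), RDH12 (0.95) and INSL3 (0.88). No other member exceeded 0.5, and the next was ENSSSCG00000012220 with 0.18. RDH12 also followed CYP17A1 in the 13 total RNA testes (r = 0.96). In all, 173 members had a negative r with CYP17A1, of which 11 were below -0.5, and the lowest named ones were ZBBX (-0.62) and FSCN3 (-0.58). Over 16110 pairs of members other than the 3 Leydig cell genes the median r was 0.27, and over 540 pairs of a Leydig cell gene with another member it was -0.28. These values are descriptions over libraries that share reads and batch.

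The library labelled testis of pig 8308 was low for the whole set. The median member was at 2.16% of its median in the other stranded mRNA testes, against 22.2% for the other genes of at least 200 CPM, and 175 members lay between 1% and 5%. INSL3 was at 34.5 CPM, CYP17A1 at 20.1 CPM, CYP11A1 at 3.32 CPM, AKAP4 at 38.5 CPM and PRM2 at 37.9 CPM. Germ cell and Leydig cell members were thus low together. The 4 members above 5% were CFAP45 (5.51%), ENSSSCG00000007001 (6.23%), FHL5 (7.51%) and ENSSSCG00000029289 (22.8%). PKD2L2 was lowest with 0.669%.

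**Figure D2:**
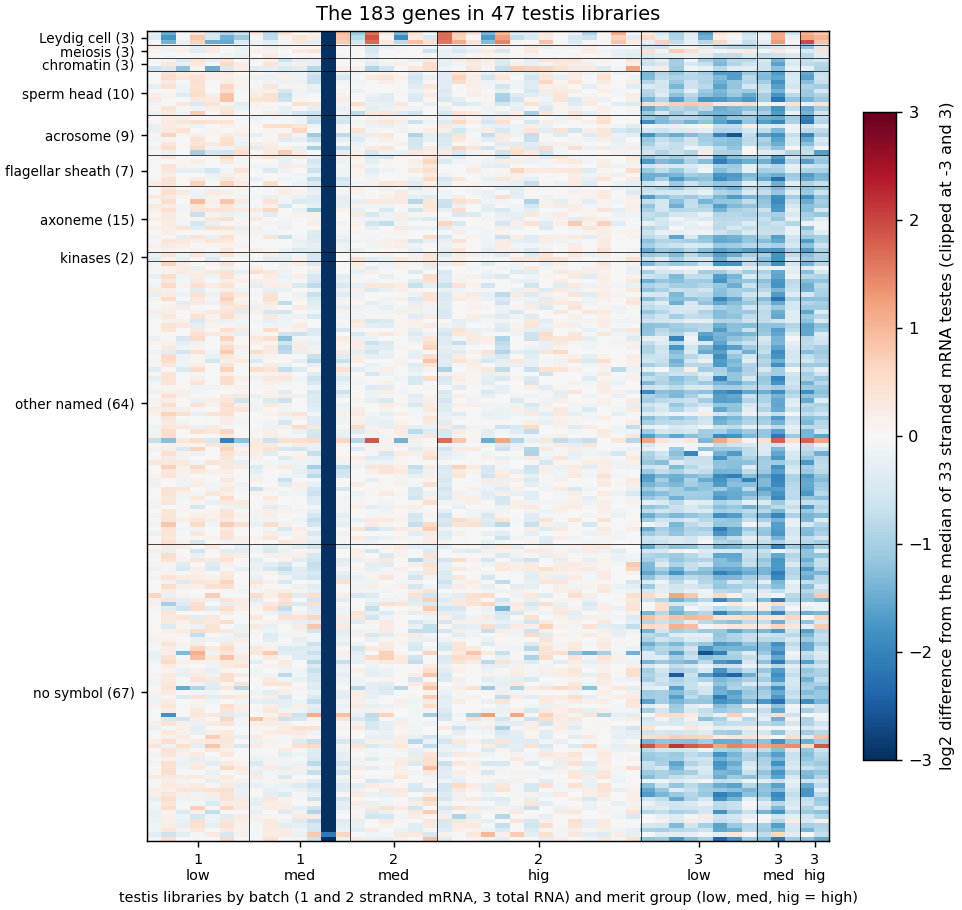
Difference of log2(CPM + 0.5) of each of the 183 genes (rows, by role, with the number of genes) from its median over 33 stranded mRNA testes, in 47 testis libraries (columns, by batch and merit group). Colours are clipped at -3 and 3. The column of pig 8308 in batch 1 is low for nearly all genes, batch 3 is lower for most, and the 3 Leydig cell genes and RDH12 vary between boars.

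Most members differed between the kits in one direction, though by less than the rule's limit. In total RNA testes 173 members were lower than in stranded mRNA testes and 10 were higher, with a median log2 difference of -0.91, against -0.53 for the 912 other genes of at least 200 CPM. Without pig 8308, the total RNA testes lay wholly below the stranded mRNA testes for 55 members and wholly above for 0. The same count was not taken over the other genes, and the kit difference was part of the rule that chose the members. The 3 Leydig cell members differed least among the roles, with -0.04 for CYP17A1, -0.14 for INSL3 and -0.25 for CYP11A1. The meiosis genes followed, with 0.23 for MEIOC, -0.43 for SHCBP1L and -0.56 for KCTD19. Outside the set, the counted Leydig cell markers below 200 CPM in testis were at 3.05 (LHCGR) and -0.44 (HSD17B3). The flagellar genes had a median of -1.05, and SMCP, with -1.47, and GAPDHS, with -1.43, lay near the limit. RDH12 (0.53) and DPY19L2 (0.48), which is needed to attach the acrosome to the nucleus, were higher. The 11 genes that fell below the limit included ODF1 and ACTL9, so the limit removed further spermatid genes. RNA integrity also differed between the kits by design. All total RNA testes were of batch 3 and all stranded mRNA testes of batch 1 or 2, and 8 of the 13 total RNA testes were of low BT. Kit, integrity, batch and merit cannot be told apart here.

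**Figure D3:**
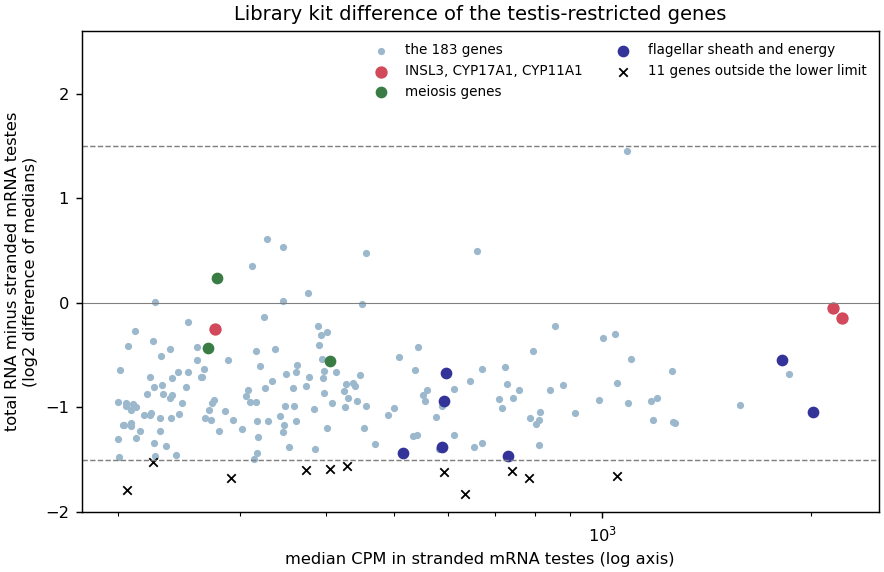
Difference between total RNA and stranded mRNA testes in median log2(CPM + 0.5) (vertical axis) against the median CPM in stranded mRNA testes (log axis), 1 point per gene. Dashed lines are the limits of -1.5 and 1.5. Of the 183 genes 173 lie below 0, the 3 Leydig cell genes lie between -0.25 and -0.04, and crosses mark the 11 genes outside the lower limit.

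In liver the members were not fully absent. The liver median was 0 for 172 members and above 0 for 11, and each of the 183 had a read in at least 1 liver. The liver of high BT pig 7131 had 1304 reads on 179 members, 0.0133% of its reads, and the next highest stranded mRNA liver, of pig 9129, had 0.00386%. Across members, the reads in the liver of pig 7131 followed the testis level (r = 0.75, rho = 0.76, across genes, which are not independent replicates). In the 2 total RNA livers LUZP2 (1.98 CPM) and KIF27 (1.41 CPM) had the highest mean.

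Whether the members differed with genetic merit was asked first in all 48 testes. In limma, with voom and quality weights per sample, 155 of 183 members had a Benjamini-Hochberg adjusted p under 0.05 between high and low BT, 149 of them higher in high BT. Over the 15334 genes tested, 52.8% were called and 31.5% were called higher. The median log2 fold change was 0.58 over members and 0.11 over all genes. The members had been chosen with the kit difference in view, and low BT had 9 total RNA testes against 2 in high BT. With the kit as a covariate, 2 members were called and the median log2 fold change was -0.07. With batch as a covariate none was called by limma (12 at an unadjusted p under 0.05), and edgeR and DESeq2 without covariates called 0 as well (2 and 5 at an unadjusted p under 0.05). Of all 15334 genes, 2155, 1591 and 2986 passed that unadjusted level, in the same order. The count of called members fell from 155 to 2 with the kit and to 0 with batch in the limma fit. Over all 15334 genes it fell from 8095 to 402 and to 68. Without covariates edgeR called 5 of all genes and DESeq2 called 201. These fits included pigs 3309 and 8308. Without both pigs limma without covariates called 158 members and 8070 of 15164 genes, and edgeR and DESeq2 were not run.

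Of the members with the lowest p in that comparison, ENSSSCG00000003066 had a log2 fold change of 1.12 (SE 0.15, limma adjusted p = 2.65e-06) and ENSSSCG00000013519 one of 1.06 (SE 0.18, limma adjusted p = 8.67e-06), which turned to -0.18 with batch as a covariate. Lower in high BT were ENSSSCG00000016024, with -1.27 (SE 0.20, limma adjusted p = 5.15e-06), and ENSSSCG00000007848, with -0.61 (SE 0.13, limma adjusted p = 9.96e-05), and both turned positive without sample quality weights, to 0.80 and 0.87. ENSSSCG00000016024 is the member with the largest positive kit difference, at 1652 to 4994 CPM in batch 3 with high and low BT together and 668 to 1986 CPM in batches 1 and 2 without pig 8308. INSL3 had 0.65 (SE 0.25, limma adjusted p = 0.0279), CYP11A1 0.65 (SE 0.26, limma adjusted p = 0.033) and CYP17A1 0.48 (SE 0.28, limma adjusted p = 0.149). With the kit as a covariate INSL3 was at 0.90 (limma adjusted p = 0.0417) and was 1 of the 2 members called there, with CYP11A1 at 0.71 and CYP17A1 at 0.71 not called (limma adjusted p = 0.118 and 0.155). Without sample quality weights the 3 genes, in the order INSL3, CYP11A1 and CYP17A1, were at 2.49, 1.64 and 2.26 (limma adjusted p = 0.174, 0.186 and 0.188). In that fit the library of low BT pig 3309, with reads on only 8 members, counts fully. Its part in these values, and in the sign changes of ENSSSCG00000016024 and ENSSSCG00000007848, was not tested. With batch as a covariate the 3 genes, in the same order, were at 1.01, 1.14 and 1.22, with limma adjusted p = 0.139, 0.0909 and 0.0939.

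Within batch 2, where kit and batch are constant, no difference between 14 high and 6 medium BT testes was detected in the members. No member was called by limma, edgeR or DESeq2, and 2 of 183 had an unadjusted p under 0.05 in limma, where 4.13% of 15164 genes did. The median log2 fold change was 0.00 over both the members and all genes. INSL3 ranged from 907 to 6823 CPM (median 2474) in high BT and from 1289 to 7251 CPM (median 2937) in medium BT, and the groups overlapped throughout. The log2 fold change in limma was 0.25 (approximate 95% interval -0.39 to 0.89) for INSL3, 0.47 (-0.30 to 1.24) for CYP17A1 and 0.49 (-0.22 to 1.20) for CYP11A1. In edgeR and DESeq2 INSL3 and CYP17A1 were at -0.09 to -0.10 and CYP11A1 at 0.0113 and 0.0122, so no direction held. DPY19L2 with -0.29 (SE 0.13) and SPATA19, a mitochondrial protein of the sperm tail, with -0.21 (SE 0.11) had the lowest p among lower members, and ENSSSCG00000015596 with 0.31 and ENSSSCG00000007001 with 0.29 among higher ones (limma adjusted p = 1.00 for each).

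Within batch 1 149 of 183 members had a negative log2 fold change from low to medium BT and 34 a positive one, the 3 Leydig cell genes among the latter. None was called by limma. At an unadjusted p under 0.05 there were 46 of 183 members, 41 lower and 5 higher, where 14.6% of 15411 genes passed, and 4.64% passed as lower. The median log2 fold change was -0.15 over members and 0.08 over all genes. Lower at this level were 4 of 9 acrosome members, 4 of 15 axoneme members, 3 of 10 sperm head members and 2 of 7 flagellar sheath members. So were 16 of 67 members without a symbol and 12 of 64 named members with no role assigned. None was lower of 3 chromatin condensation, 2 spermatid kinase and 3 meiosis members. The roles were assigned after values had been seen. With pig 8308 in the fit edgeR and DESeq2 gave 0 members at an unadjusted p under 0.05, against 2998 and 2037 of 15411 genes. Without pig 8308 limma gave 56 (49 lower, none called), where 2136 of 14974 genes passed, 737 of them as lower. Of the alternatives chosen after seeing the data, edgeR without it gave 77 lower members at an unadjusted p under 0.05, against 8.35% of all genes, and DESeq2 without it called 14 members, all lower, against 1.18% of all genes called lower.

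ACRV1 ranged from 578 to 828.9 CPM in the 7 low BT testes of batch 1 and from 353 to 579 CPM in 6 medium BT testes, so that the groups met at their edges only, and the testis of pig 8308 had 7.51 CPM. TEKT1 ranged from 204 to 263 CPM in low BT and from 159 to 202 CPM in medium BT without pig 8308, with no overlap. In DESeq2 without pig 8308 the log2 fold change was -0.62 (SE 0.17, adjusted p = 0.0273) for ACRV1, -0.51 (SE 0.13, adjusted p = 0.0168) for TEKT1 and -0.60 (SE 0.17, adjusted p = 0.0286) for ACTL7B. The same fit called CFAP45, SPATA46, ACTL7A and TULP2. AKAP4 ranged from 1994 to 3055 CPM in low BT and from 1737 to 2575 CPM in medium BT without pig 8308, and PRM2 from 383 to 1212 CPM and from 595 to 1222 CPM, each with overlap. In limma with all libraries the lowest p among lower members were those of ENSSSCG00000004028 with -0.49 (SE 0.13) and ENSSSCG00000015942 with -0.49 (SE 0.13), both with an adjusted p = 0.2.

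For the Leydig cell genes of batch 1, INSL3 ranged from 782 to 3528 CPM in low BT and from 1754 to 3764 CPM in medium BT without pig 8308, CYP17A1 from 642 to 3851 CPM and from 1301 to 3925 CPM, and CYP11A1 from 101 to 347 CPM and from 161 to 520 CPM. All 3 pairs of groups overlapped. The log2 fold change in limma was 0.63 (SE 0.29) for INSL3, 0.78 (SE 0.29) for CYP17A1 and 0.67 (SE 0.24) for CYP11A1, with adjusted p = 0.328, 0.246 and 0.238, and was negative in the fit without sample quality weights (-0.16, -0.16 and -0.23), in which pig 8308 counts fully. Without pig 8308 it was 0.64, 0.79 and 0.68 in limma and 0.40, 0.51 and 0.54 in edgeR. RDH12 had 0.95 (SE 0.30, limma adjusted p = 0.206), with 86.2 to 509 CPM in low BT and 230 to 548 CPM in medium BT without pig 8308. In the same libraries the summed Leydig cell markers, 3 of which are members, had a median of 2978 CPM in low and 4870 CPM in medium BT, the Sertoli cell markers 1729 and 2271 CPM, the peritubular markers 33.4 and 58.7 CPM, and the spermatid markers 46254 and 41475 CPM, the medium group without pig 8308. The part of cell composition in these differences was not tested.

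**Figure D4:**
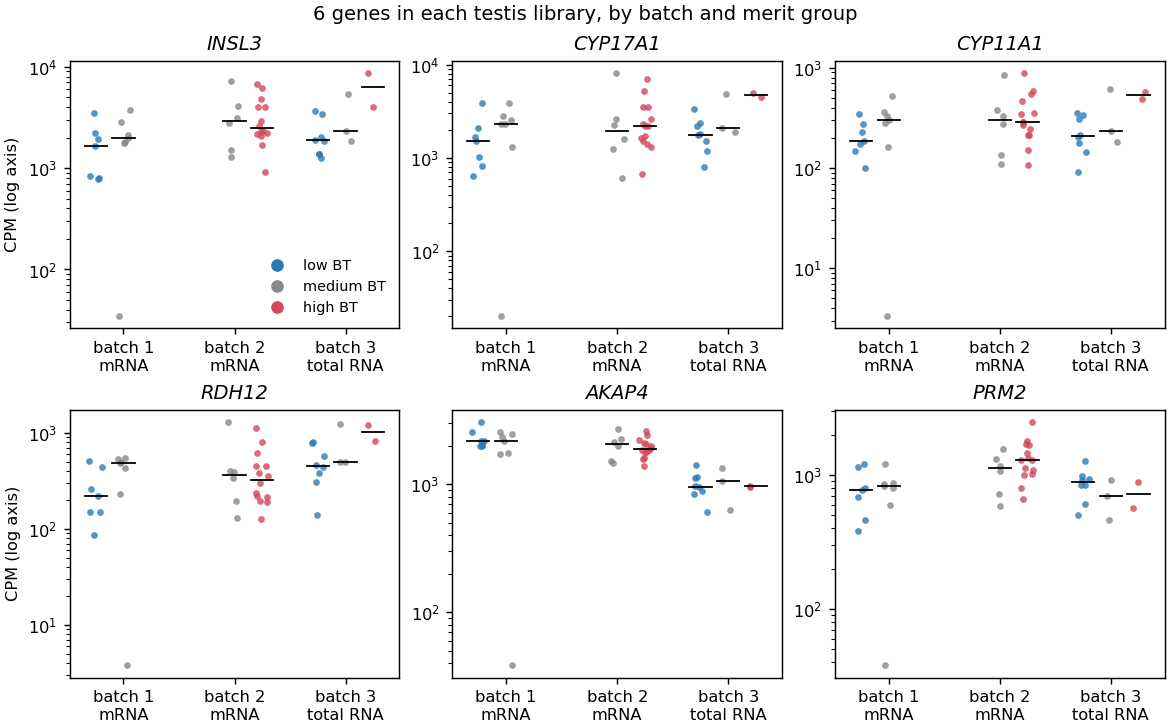
CPM (log axis) of INSL3, CYP17A1, CYP11A1, RDH12, AKAP4 and PRM2 in each testis library, by batch and merit group, with the median as a bar. INSL3, CYP17A1 and CYP11A1 were highest in the 2 high BT testes of batch 3 relative to the 8 low BT testes of that batch, and pig 8308 is the low point of batch 1 in every panel.

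Batch 3 is the only batch with both high and low BT, with 2 and 8 total RNA testes after pig 3309 was left out. INSL3 was at 4007 and 8638 CPM in high BT and at 1263 to 3630 CPM (median 1874) in low BT. CYP17A1 was at 4461 and 4982 CPM against 801 to 3351 CPM (median 1776), and CYP11A1 at 487 and 576 CPM against 90.8 to 358 CPM (median 208). Both high BT testes lay above all 8 low BT testes for each of these genes. The 3 genes were closely correlated over the total RNA testes (r = 0.82 to 0.98), so they are not separate observations. The same separation was not counted over the other genes. In the 3 medium BT testes, pig 2111 was also high, with 5421 CPM of INSL3 and 4820 CPM of CYP17A1, and its 608 CPM of CYP11A1 and 1239 CPM of RDH12 exceeded both high BT testes. Library measures separated the same groups: HTSeq assigned no gene to 31.9% and 38.0% of reads in the high BT testes and to 39.4% to 55.3% in the 8 low BT testes, and reads on genes were 8263479 and 7704963 against 3689243 to 7519001. In the testis of pig 2111 the share without a gene was 48.2%. The part of library quality in the Leydig cell differences was not tested.

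The log2 fold change between high and low BT in batch 3 was 1.53 (SE 0.46) for INSL3, 1.33 (SE 0.44) for CYP17A1 and 1.24 (SE 0.45) for CYP11A1, with limma adjusted p = 0.281, 0.392 and 0.473. No member was called by limma or edgeR. DESeq2 called 2, INSL3 with 1.70 (SE 0.44, adjusted p = 0.0154) and CYP17A1 with 1.41 (SE 0.40, adjusted p = 0.0313). Over all 14779 genes tested DESeq2 called 221. At an unadjusted p under 0.05 limma had 5 of 183 members, the 3 Leydig cell genes among the higher and ENSSSCG00000015804 (-0.49) and ENSSSCG00000027356 (-0.50) lower, where 7.67% of 14779 genes passed. The median log2 fold change was -0.07 over both the members and all genes, and 127 of 183 members were below 0. This direction rested on single libraries: without high BT pig 1306 66 members were below 0 and the median was 0.09, and without pig 1331 149 were below 0 and the median was -0.26. Without pig 1306 INSL3 was at 0.98, and without pig 1331 at 2.09 (limma adjusted p = 0.7 and 0.0643). A group of 2 boars takes its spread from the other groups in this fit. RDH12 was at 815 and 1218 CPM in high BT and at 138 to 811 CPM in low BT, with a log2 fold change of 1.07 (SE 0.52, limma adjusted p = 0.658).

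**Figure D5:**
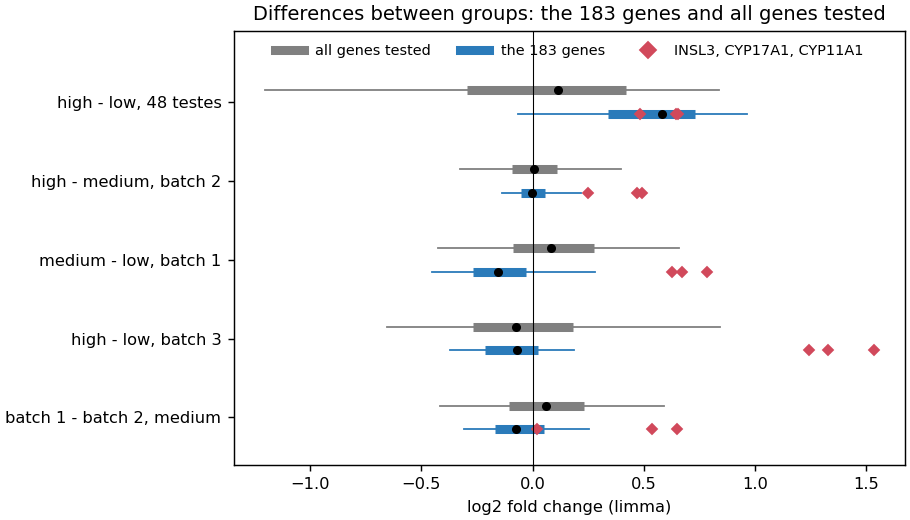
Log2 fold changes in limma for the 183 genes (blue) and all genes tested (grey), in the pooled comparison, within batches and between batches. Lines span the 5th to 95th percentile, bars the quartiles and points the median, and diamonds are INSL3, CYP17A1 and CYP11A1. The 183 genes have a median of 0.58 in the pooled comparison and of -0.15 to 0.00 in the others.

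The batches themselves were compared in medium BT, the only merit group with stranded mRNA libraries in both. No member was called by limma, edgeR or DESeq2 between batch 1 and batch 2, and 11 of 183 had an unadjusted p under 0.05 in limma, against 10.3% of 15433 genes. Without pig 8308 there were 22, against 1572 of 14955 genes. INSL3 was at 0.02 (SE 0.32), CYP17A1 at 0.65 (SE 0.41) and CYP11A1 at 0.54 (SE 0.37) in limma, and all 3 turned negative in edgeR and DESeq2. HSPB9 was lowest with -0.55 (SE 0.16, limma adjusted p = 0.323), and ENSSSCG00000003066 was at -0.41, ENSSSCG00000007001 at 0.41 and ENSSSCG00000012220 at 0.43.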

How the data were processed

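RNA-Seq was measured in liver and testis of 48 boars (96 libraries). Per the labels and methods, the authors used cutadapt 1.8.1 and Trimmomatic 0.33 for trimming and STAR for alignment to the pig genome build 10.2 (Ensembl 79), and deposited raw HTSeq 0.6.0 counts per gene without normalisation. Reads with several alignments were not counted, so genes with near-identical copies may be understated. The 5 summary rows per file were left out of library sizes. No column of values went unmapped.

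Genes with a mean count above 5 were tested with limma 3.58.1 (voomWithQualityWeights, Benjamini-Hochberg adjustment over all genes), and with edgeR 4.0.16 (quasi-likelihood) and DESeq2 1.42.0 as alternatives, in R 4.3.3. Fits were tested on simulated data. Other alternatives were TMM factors, no quality weights, other count minimums, kit or batch as covariate, and leaving out libraries. Symbols came from a table of gene names, which paired 11804 of 25322 identifiers. Roles were assigned from known function after values had been seen. Named genes were those of highest level, at the thresholds, of highest and lowest SD, of lowest p per comparison, of highest level in total RNA livers, the 30 named members of highest level, and marker list members, and further genes named by role were chosen after their values were seen. The members and lists were chosen with earlier results of these data known. Counting error is largest in the shallowest libraries. Boars were the replicates, and half-sibs are not accounted for.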

Additional observations from a re-analysis of the deposited data

Results flagged for a closer look

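Dixon's test was applied to 32 groups of values, the share of reads on the members and 7 genes in the testis groups of 4 to 10 libraries, and flagged 6. CYP17A1, RDH12 and CFAP45 had also been named for their spread over these testes, and several of the genes were correlated. The number of flags was therefore not compared with chance. All 6 came from 2 boars, both of medium BT. The 14 high BT testes of batch 2 were too many for this test. In batch 1 the testis of pig 8308 was far below the other 6, with 0.215% of reads on the members against 7.63% to 9.66%, 38.5 CPM of AKAP4 against 1737 to 2575 CPM, and 11.0 CPM of CFAP45 against 153 to 186 CPM.

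In batch 2 the testis of pig 8106 was far above the other 5 medium BT testes in the steroid enzymes and RDH12. CYP17A1 was at 8099.7 CPM against 606 to 2635 CPM, CYP11A1 at 843 CPM against 109 to 377 CPM, and RDH12 at 1289 CPM against 131 to 401 CPM. INSL3 was at 7251 CPM in the same testis and AKAP4 at 1530 CPM, and 9.72% of its reads fell on the members. It was not alone in batch 2. The high BT testis of pig 1326 had 7057 CPM of CYP17A1, 882 CPM of CYP11A1, 1134 CPM of RDH12 and 6823 CPM of INSL3.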

How the results depend on the processing

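The number of members was 315 with a testis minimum of 100 CPM, 78 with 400 CPM and 117 with kit limits of -1 and 1. The median SD of 0.97 fell to 0.261 without pig 8308. In high minus low BT over all testes the 155 called members became 0 with edgeR, DESeq2, no quality weights or batch as covariate (with or without the 2 unlike libraries), 2 with kit as covariate or stranded mRNA only, and 8 with at least 10 counts in every library, where only 8 members were tested. Of all genes, stranded mRNA only called 194 of 15351, no quality weights 30 of 15334, and 10 counts in every library 314 of 515. At an unadjusted p under 0.05 the 160 became 2 (edgeR), 5 (DESeq2), 8 (10 counts in every library), 23 (kit), 12 (batch), 17 (batch, without both libraries) and 34 (stranded mRNA only). Over all genes the 8926 of 15334 became 1591, 2986, 343 of 515, 2979, 2155, 2158 of 15164 and 2467 of 15351, in the same order. In batch 2 the 2 became 1 with edgeR, DESeq2, TMM or no quality weights and 0 with no minimum count. For all genes the 627 of 15164 became 566, 574, 633 and 469, and 850 of 20858 with no minimum count. In batch 1 the 46 became 0 with edgeR, DESeq2 or no quality weights, and without pig 8308 80 with edgeR and 86 with DESeq2, of which 14 were called. Of all 15411 genes, 2998, 2037 and 1425 passed with edgeR, DESeq2 and no quality weights. Without pig 8308, 2263 (edgeR) and 2355 (DESeq2) of 14974 genes passed, and DESeq2 called 203. In batch 3 DESeq2 called 2, and the 5 became 9 without quality weights, 3 with every library, and 7 to 20 when either high BT pig was left out (20 without pig 1331). For all genes the 1134 of 14779 became 1484 without quality weights and 1196 of 14673 with every library. Between batches the 11 became 0 with edgeR, DESeq2 or no quality weights, 6 with no minimum count, and without pig 8308 22 with limma, 23 with edgeR and 26 with DESeq2. Without pig 8308, 1572 (limma), 1685 (edgeR) and 1737 (DESeq2) of all 14955 genes passed. The fits without pig 8308 in edgeR and DESeq2, and batch as covariate without both libraries, were chosen after seeing the data. In high minus low BT, the fits with edgeR, DESeq2 or no quality weights kept pigs 3309 and 8308 and were not run without them.

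Some named genes changed sign. In high minus low BT ENSSSCG00000013519 was at -0.18 with batch as covariate, with or without the 2 unlike libraries, and without quality weights ENSSSCG00000016024 was at 0.80 and ENSSSCG00000007848 at 0.87. In batch 2 INSL3 was at -0.0933 with edgeR and -0.0927 with DESeq2, and CYP17A1 at -0.0958 and -0.0914. In batch 1 without quality weights CYP11A1 was at -0.23 and INSL3 and CYP17A1 at -0.16. Between batches ENSSSCG00000007001 was at -0.13 without quality weights. ENSSSCG00000012220 was at -0.24 (edgeR), -0.25 (DESeq2) and -0.59 (no weights), and without pig 8308 at -0.0302 and -0.0317. INSL3 was at -0.80 (edgeR), -0.81 (DESeq2), -0.10 (TMM), -1.14 (no weights), -0.0919 (no minimum count) and, without pig 8308, -0.60 (edgeR) and -0.59 (DESeq2). CYP17A1 was at -0.43 with both tools, -0.68 without weights and, without pig 8308, -0.23 and -0.22. CYP11A1 was at -0.40, -0.41 and -0.75 and, without pig 8308, -0.20 with both. The cause was not tested beyond the library left out.

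No paired analysis was possible because the merit groups hold different pigs, and the tissues, which share pigs, were compared by the rule that chose the members. The depth of the total RNA libraries and groups of 2 and 3 boars limit the precision in batch 3.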
